A study of Mus musculus with 6 samples.

Results

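Cardiac and smooth muscle contractile genes were described in lung and lung tumours of FVB/NJ mice, an inbred strain. The set held 45 genes, chosen by name from the 33924 gene names of the deposited count table: 29 genes of heart muscle and 16 genes of smooth muscle or pericytes. All 45 names were in the table. Of the 6 RNA-seq libraries, 3 came from lung labelled normal (control replicates 1, 2 and 3) and 3 from lung tumours labelled as induced by urethane (tumour replicates 1, 2 and 4). The treatments named are saline and intraperitoneal urethane, a chemical carcinogen, at 1 g per kg, and harvest was at 6 months in all libraries. Neither the sex of the animals nor the way tumours were separated from lung is stated. Whether the libraries stand for separate animals is also not stated, so the p-values measure only the spread between these libraries.

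Libraries held 38996532 to 62336537 reads assigned to genes. A count of 3 reads, taken here as the limit of detection, was worth 0.0456 to 0.0815 CPM (counts relative to library size, scaled by edgeR's TMM factors) depending on the library. Of the 20001 genes that passed a filter on low counts, 4770 (23.8%) were lower and 3627 (18.1%) higher in tumours, 42.0% in either direction, at an adjusted p under 0.05 in edgeR's quasi-likelihood test. The female-specific transcript Xist stood at 3359 CPM in tumour 2 and at 5.82 to 32.9 CPM in the other libraries, so tumour 2 stood apart from them. Calls that changed without tumour 2 are given with the genes concerned. Values are listed in the order control 1, 2, 3 and tumour 1, 2, 4.

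Striated muscle contracts by the sliding of myosin thick filaments along actin thin filaments, under the control of calcium that troponin senses and the sarcoplasmic reticulum stores. In mice, heart muscle continues from the left atrium along the pulmonary veins into the lung, so whole lung can hold cardiac transcripts of the atrial kind. Smooth muscle of airways and vessels uses its own actin and myosin isoforms, is switched by phosphorylation of the myosin light chain, and has no troponin. Pericytes are the contractile cells that sit on capillaries. Many muscle promoters hold a CArG box, bound by serum response factor, a site for MEF2, an MCAT element, bound by TEAD factors, or a GATA site.

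The promoters of 38 of the 45 members were found in the RefSeq table (build GRCm38.p6), as windows from 250 bases before to 50 bases after the start. Both strands were searched for exact matches to the CArG box (CCWWWWWWGG) and the MEF2 site (YTAWWWWTAR). Here W is A or T, Y is C or T and R is A or G. The search also took the MCAT core CATTCC, the GATA word TGATAA and the TATA word TATAAA. The 250 bases before the start are printed for 5 members. Actc1 (chr2:114052876-114053125, minus strand) and Myl7 (chr11:5898783-5899032, minus strand) had almost no tumour reads. Myl9 (chr2:156775214-156775463, plus strand) was the smooth muscle member with a CArG box. Myh6 (chr14:54966608-54966857, minus strand) and Myh7 (chr14:54994627-54994876, minus strand) are neighbouring genes that moved in opposite directions. Capitals mark CArG boxes, MCAT cores and GATA words, read on either strand, and no marked site overlaps another.
Actc1: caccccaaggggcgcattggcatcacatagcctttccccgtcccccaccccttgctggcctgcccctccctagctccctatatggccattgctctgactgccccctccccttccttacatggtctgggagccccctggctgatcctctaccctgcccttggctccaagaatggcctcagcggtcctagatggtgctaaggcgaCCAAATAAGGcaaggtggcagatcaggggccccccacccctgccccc
Myl7: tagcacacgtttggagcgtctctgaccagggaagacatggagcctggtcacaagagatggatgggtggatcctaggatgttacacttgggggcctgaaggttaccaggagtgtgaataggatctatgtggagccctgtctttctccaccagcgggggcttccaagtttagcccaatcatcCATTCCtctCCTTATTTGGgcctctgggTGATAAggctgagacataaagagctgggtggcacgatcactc
Myl9: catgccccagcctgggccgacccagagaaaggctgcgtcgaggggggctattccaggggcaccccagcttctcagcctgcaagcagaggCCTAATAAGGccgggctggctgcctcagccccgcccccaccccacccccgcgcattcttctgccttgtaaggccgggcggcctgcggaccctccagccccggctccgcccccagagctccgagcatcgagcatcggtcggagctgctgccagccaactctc
Myh6: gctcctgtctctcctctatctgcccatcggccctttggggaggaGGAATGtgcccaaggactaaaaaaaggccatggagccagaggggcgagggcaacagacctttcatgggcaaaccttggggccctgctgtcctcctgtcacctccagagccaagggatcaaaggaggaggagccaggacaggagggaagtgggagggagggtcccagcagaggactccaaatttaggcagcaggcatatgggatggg
Myh7: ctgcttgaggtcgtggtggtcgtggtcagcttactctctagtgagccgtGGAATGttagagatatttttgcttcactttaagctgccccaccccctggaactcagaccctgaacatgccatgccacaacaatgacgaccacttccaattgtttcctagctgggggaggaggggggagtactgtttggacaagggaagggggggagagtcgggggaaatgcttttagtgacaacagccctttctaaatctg

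Myl7 holds an MCAT core, a CArG box and a GATA word close together near its start, while Actc1 and Myl9 hold a single CArG box each. The Myh6 and Myh7 windows each hold a single MCAT core on the opposite strand and neither a CArG box nor a GATA word. Over the 26 cardiac members with a promoter, a CArG box stood in 4 (Actc1, Myl3, Myl7 and Ldb3) and a MEF2 site in another 4 (Ttn, Mybpc3, Casq2 and Myoz2), against 1.81% and 3.70% of all 27025 genes with a promoter. MCAT cores stood in 9 of the 26 cardiac and 6 of the 12 smooth muscle promoters (16.6% of all genes). GATA words stood in 5 cardiac and 0 smooth muscle promoters (10.4% of all genes), and TATA words in 7 and 2 (15.7%). Of the 12 smooth muscle promoters, 1 held a CArG box (Myl9) and 1 a MEF2 site (Synpo2). These are matches of letters in a short window, not tested sites, and inexact or more distant sites would be missed.

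The cardiac genes were lower in the tumours almost without exception. Of the 29, 28 passed the filter on low counts, 25 were lower (against 23.8% of all genes tested), 2 were higher (Myh7 and Corin, against 18.1%) and 1, Atp2a2, was not called. The exception to the filter was Nppb, with 6 control reads. Control and tumour libraries did not overlap for 26 of the 28, against 56.0% of all genes tested. The median log2 fold change of the 28 was -5.11, or -5.01 with the 4 tested genes that had no tumour read set at their bound, and that of all genes tested was 0.01. In the fit, 20 members were at least 10-fold lower. Bulk tissue cannot tell fewer cells of a type from less RNA per cell, here or in any result that follows.

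**Figure D1:**
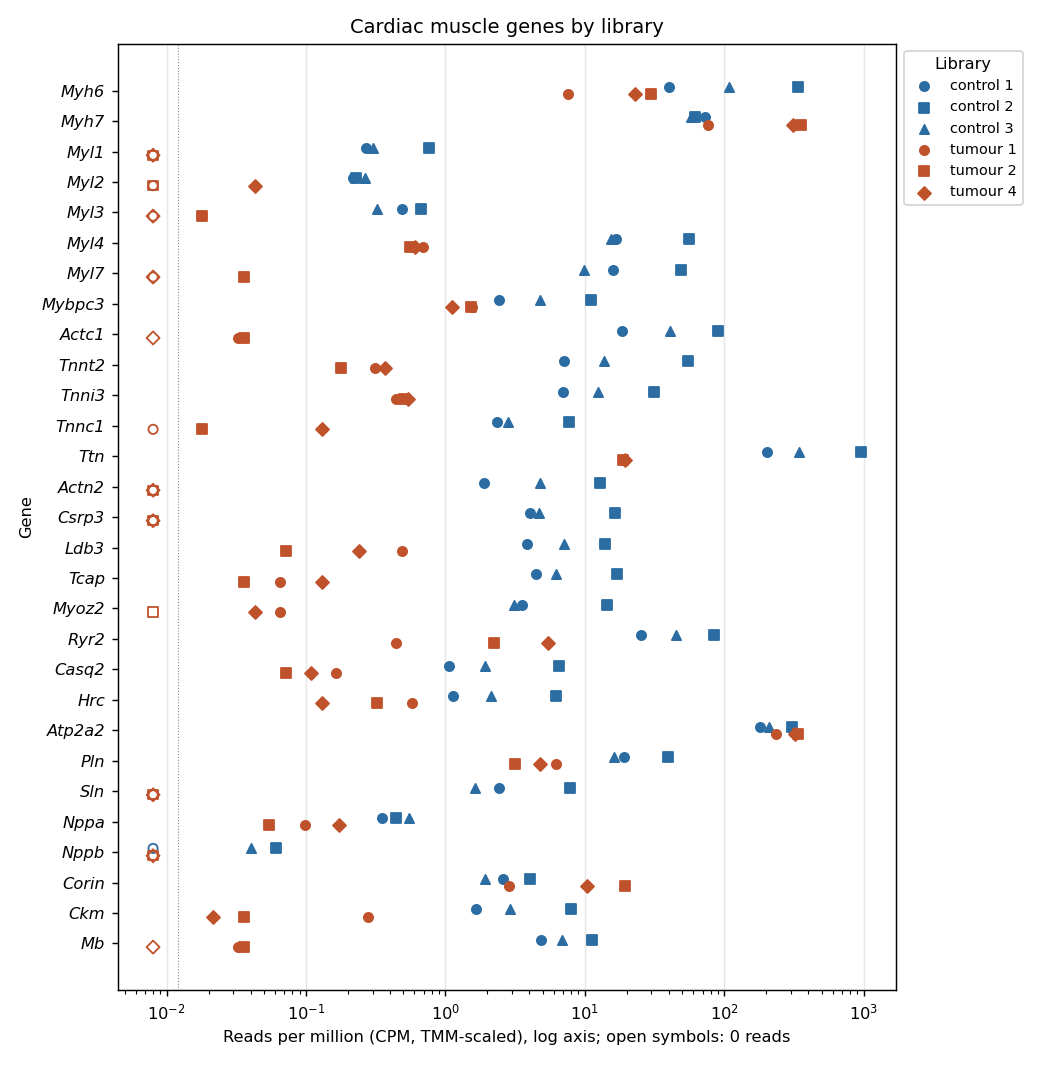
CPM (TMM-scaled, log axis) of the 29 cardiac genes in each of the 3 control (blue) and 3 tumour (orange) libraries, 1 point per library, with open symbols at the left edge for 0 reads. For most genes the control points lie to the right of the tumour points with control 2 farthest right, while Myh7, Corin and Atp2a2 do not follow that order.

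In the thick filament, both atrial light chains fell, and Myl7 was close to lost. Myl7, the atrial regulatory light chain (chr11:5796640-5798785 in the mm9 positions of the deposited table), stood at 15.9, 48.8 and 9.83 CPM in controls and at 0, 0.0359 and 0 CPM in tumours. Its 4280 control reads faced 2 tumour reads, a 2296-fold lower level (95% exact binomial interval 635 to 18966, counting error only, adjusted p = 0.000117). The ratio was 1013 without control 2 and 1434 without tumour 1, and without tumour 2, which held both tumour reads, the level was at least 1008-fold lower. Myl4, the atrial essential light chain, was at 16.7, 55.5 and 15.4 CPM in controls and at 0.686, 0.557 and 0.607 CPM in tumours (fitted log2 fold change -5.56 ± 0.58 SE, adjusted p = 0.000169). Without control 2 that change was -4.69. All control libraries lay above all tumour libraries for both genes.

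The ventricular light chains were scarce in every library. Myl2, the ventricular regulatory light chain, was at 0.217, 0.228 and 0.264 CPM in controls and at 0, 0 and 0.0434 CPM in tumours, with 36 and 2 reads in all (ratio 19.3, exact binomial interval 4.97 to 166, adjusted p = 0.00801). Without tumour 4, which held both tumour reads, Myl2 was at least 9.23-fold lower, and the ratio was 12.1 without tumour 1 and 12.7 without tumour 2. Without control 2 it did not pass the filter. Myl3, the ventricular essential light chain, was at 0.489, 0.668 and 0.325 CPM in controls and at 0, 0.0180 and 0 CPM in tumours (ratio 83.7, exact binomial interval 14.6 to 3348, adjusted p = 0.000769). Without tumour 2, which held its single tumour read, Myl3 was at least 18.4-fold lower, and without tumour 1 the ratio was 52.3. Per kilobase of exon, Myl7 exceeded Myl2 in the controls by factors of 242, 707 and 123. Of the other genes on a ventricular list, Irx4, a transcription factor, had no read in any library. Hey2 was at 4.64, 6.55 and 5.4 CPM and Lbh at 118, 142 and 172 CPM in controls. Both fell (log2 fold changes of -2.87 ± 0.36 and -3.81 ± 0.33). The list also held Myh7, which was higher in tumours and is described below. Myl1, the light chain of fast skeletal muscle that is also made in atria, had 75 control reads and no tumour read and was at least 26.8-fold lower (adjusted p = 0.00288), or at least 15.8-fold without control 2, 16.8-fold without tumour 1 and 17.7-fold without tumour 2. Of its 32-base words, 28.2% also occur in the pseudogene Mylf-ps, so its level is uncertain. Mybpc3, cardiac myosin binding protein C, fell less, by 2.12 ± 0.53 on the log2 scale (adjusted p = 0.0124), and by 1.36 without control 2.

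The 2 myosin heavy chains moved in opposite directions. Myh6, the fast alpha chain of the adult mouse heart (chr14:55560758-55585764, mm9), was at 40.2, 341 and 108 CPM in controls and at 7.57, 29.9 and 22.9 CPM in tumours (fitted log2 fold change -3.02 ± 0.79, adjusted p = 0.0158). Control 2 was far above the other controls, and without it the change was -1.86 and was not called (adjusted p = 0.0539). Myh7, the slow beta chain (chr14:55589525-55613471, mm9), was at 72.8, 61.8 and 57.9 CPM in controls and at 76.7, 354 and 311 CPM in tumours (fitted log2 fold change 1.94 ± 0.49, adjusted p = 0.0127). Tumour 1 lay just above the highest control, while tumours 2 and 4 were several times higher. The call on Myh7 was lost without control 2 (adjusted p = 0.0530) and without control 3 (adjusted p = 0.0647). As a share of Myh7, Myh6 stood at 55.2, 551 and 186% in controls and at 9.86, 8.47 and 7.37% in tumours. The mRNAs are alike: 31.7% of the 32-base words of Myh6 also occur in Myh7. How reads from such words were placed or left out, and the effect on either level, was not tested. Exons of neither gene overlap those of another name in the table.

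The thin filament genes all fell. Actc1, cardiac actin (chr2:113873018-113879284, mm9), was at 18.6, 89.6 and 40.9 CPM in controls and at 0.0327, 0.0359 and 0 CPM in tumours (fitted log2 fold change -10.86 ± 0.89, adjusted p = 5.64e-05), with 4 tumour reads in all. Troponin T of the heart, Tnnt2, was at 7.09, 54.6 and 13.8 CPM in controls and at 0.311, 0.180 and 0.369 CPM in tumours (fitted log2 fold change -6.46 ± 0.87, adjusted p = 0.000588). Tnni3, cardiac troponin I, was at 6.98, 31.4 and 12.5 CPM in controls and at 0.441, 0.503 and 0.542 CPM in tumours (fitted log2 fold change -5.10 ± 0.59, adjusted p = 0.000278). For each, the lowest control lay more than 10-fold above the highest tumour. Tnnc1, the troponin C shared by heart and slow muscle, had a log2 fold change of -6.53 ± 0.95 (adjusted p = 0.000920), -5.87 without tumour 1 and -8.62 without tumour 4, which held 6 of its 7 tumour reads. Without control 2 the log2 fold changes were -10.10 for Actc1, -5.18 for Tnnt2, -4.28 for Tnni3 and -5.76 for Tnnc1, all still called. Per kilobase, Actc1 stood at 46.1, 84.4 and 61.3% of the smooth muscle actin Acta2 in controls and at 0.210, 0.159 and 0% in tumours.

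Among titin and the Z disc genes, all 6 fell. Titin (Ttn, chr2:76542037-76820604, mm9), the molecular spring of the sarcomere, was at 204, 958 and 342 CPM in controls and at 18.8, 18.9 and 19.4 CPM in tumours (fitted log2 fold change -4.72 ± 0.57, adjusted p = 0.000342). The 3 tumours were almost equal, whereas control 2 was well above the other controls. Because its mRNA is so long, Ttn made up 52.4, 52.1 and 52.3% of the summed CPM of the 25 members that fell in the controls. Actn2, the alpha-actinin that anchors actin at the Z disc, had no tumour read and was at least 410-fold lower (adjusted p = 0.00119), or at least 192-fold without control 2. The mechanical sensor Csrp3 also had no tumour read and was at least 524-fold lower (adjusted p = 0.000654), or at least 239-fold without control 2. Tcap, which caps titin, fell by 6.91 ± 0.72 and Myoz2, a calcineurin-binding protein of the Z disc, by 7.50 ± 0.97 on the log2 scale. Ldb3, another Z disc protein, fell by 4.93 ± 0.72. Without control 2 the falls of Ttn, Tcap, Myoz2 and Ldb3 were smaller, with log2 fold changes of -3.83, -6.10, -6.41 and -4.32, and without tumour 1 those of Myoz2 and Ldb3 were -8.27 and -5.73. The bounds of Actn2 and Csrp3 without tumour 1 were 256-fold and 327-fold, and without tumour 2 that of Actn2 was 270-fold and that of Csrp3 345-fold.

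Of the 6 calcium store genes, 5 fell. Ryr2, the release channel of the cardiac sarcoplasmic reticulum, was at 25.2, 84.6 and 44.8 CPM in controls and at 0.441, 2.23 and 5.49 CPM in tumours (fitted log2 fold change -4.26 ± 0.83, adjusted p = 0.00394), or -5.27 without tumour 4, the highest tumour. Sln, sarcolipin, the atrial inhibitor of the calcium pump, was at 2.42, 7.87 and 1.62 CPM in controls and had no tumour read, so it was at least 246-fold lower (adjusted p = 0.00115), and at least 107-fold without control 2, 153-fold without tumour 1 and 162-fold without tumour 2. Phospholamban, Pln, another inhibitor of the pump, was at 19.1, 39.8 and 16.2 CPM in controls and at 6.21, 3.14 and 4.77 CPM in tumours (fitted log2 fold change -2.41 ± 0.40, adjusted p = 0.00175). Its groups did not overlap, but its fall was the smallest of these 5. Casq2, which stores calcium, fell by 4.75 ± 0.79, and Hrc, a calcium-binding protein of the same store, by 3.19 ± 0.75. Without control 2 these were -3.65 and -2.22. Atp2a2, the calcium pump itself and a gene that many cell types use, was at 181, 304 and 208 CPM in controls and at 236, 337 and 320 CPM in tumours (fitted log2 fold change 0.37 ± 0.24, adjusted p = 0.251). Its groups overlapped and no change was detected.

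The heart hormones were near the limit of detection. Nppa, the atrial natriuretic peptide, was at 0.353, 0.441 and 0.548 CPM in controls and at 0.0981, 0.0539 and 0.174 CPM in tumours (fitted log2 fold change -2.05 ± 0.52, adjusted p = 0.0137). The call was lost without control 3 (adjusted p = 0.0615). Its level is uncertain, since 61.5% of its exon bases are shared with the overlapping name Gm13054. Nppb, the brain natriuretic peptide, had 0, 4 and 2 reads in controls and none in tumours. Corin, the membrane protease that cuts the atrial peptide from its precursor, went the other way, with 2.58, 4.01 and 1.91 CPM in controls and 2.88, 19.5 and 10.3 CPM in tumours (fitted log2 fold change 1.94 ± 0.62, adjusted p = 0.0362). Tumour 1 lay below control 2, so the groups overlapped. Its call was lost on leaving out control 1 (adjusted p = 0.105), control 2 (0.0596), control 3 (0.132), tumour 2 (0.109, with a log2 fold change of 1.22) or tumour 4 (0.0610), and in limma-voom (0.127).

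Both genes of energy and oxygen supply fell. Mb, myoglobin, which holds oxygen in heart and slow muscle, was at 4.83, 11.3 and 6.90 CPM in controls and had 4 tumour reads (fitted log2 fold change -8.17 ± 0.64, adjusted p = 4.73e-05). Ckm, muscle creatine kinase, had a log2 fold change of -5.12 ± 0.94 (adjusted p = 0.00291), -4.25 without control 2 and -7.0 without tumour 1, which held 17 of its 20 tumour reads. Of its exon bases, 31.9% overlap the name A930016O22Rik.

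The spread among the control libraries was wide for the cardiac genes. Over the 28 tested, the coefficient of variation in the 3 controls (SD divided by mean) had a median of 73.1% (range 10.3 to 102%), where the median of the variation that counting alone would give was 4.75%. The median over all genes tested was 15.3%. Of all 29 genes, 22 varied by more than 50%. Control 2 was the highest control for 26, against 36.8% of all genes tested, the exceptions being Myh7, Myl2 and Nppa. Control 2 stood at a median of 3.11 times the mean of controls 1 and 3 (range 0.945 to 5.23), against 1.02 over all genes tested. Without control 2 the median coefficient of variation of the cardiac genes was 29.6%.

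Most of the members that fell, 23 of 25, were highest in control 2 among the controls. They share the same 3 control libraries, so the ratios describe those libraries. Over the 25, the median ratio of control 2 to control 1 was 3.78 (above 1 for all 25), that of control 2 to control 3 was 2.72 (above 1 for 23) and that of control 3 to control 1 was 1.55 (above 1 for 19). Summed over them, the controls stood at 388, 1838 and 653 CPM and the tumours at 37.9, 57.7 and 56.2 CPM. The 25 were chosen by their call, so their sums were bound to be lower in tumours. In the sum of the 25 without Ttn the controls stood at 185, 880 and 312 CPM and the tumours at 19.0, 38.8 and 36.8 CPM. Over all 29 cardiac genes, Myh7 and Atp2a2 included, the sums were 645, 2208 and 921 CPM in controls. In tumours they were 354, 767 and 697 CPM, so control 1 lay below tumours 2 and 4. Without control 2, 23 members were still called lower, against 3930 of the 20147 genes then tested. The fall of 19 of the 27 members then tested, Myh6 included, was more than 1.5 times smaller. The median log2 fold change was then -4.32.

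Some other transcripts were also high in control 2. Over all genes tested, control 2 was the highest control for 36.8%. Its median ratio to the mean of controls 1 and 3 was 1.02, so genes at large did not set it apart. The 4 tested genes of red cells had control 2 highest in each case, at a median of 10.6 times the mean of the other controls, with summed levels of 23.1, 492 and 64.5 CPM in controls and 17.0 to 29.7 CPM in tumours. Among 6 mesothelial genes, markers of the lining of the lung surface, control 2 was highest for 4, at a median of 2.11 times, while their summed levels were 79.1, 71.5 and 68.6 CPM in controls and 0.976 to 3.03 CPM in tumours. The endothelial list gave control 2 ratios with a median of 1.18 and the fibroblast list a median of 1.12. The part of these transcripts, or of how the lung was dissected, in the spread of the cardiac genes was not tested.

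**Figure D2:**
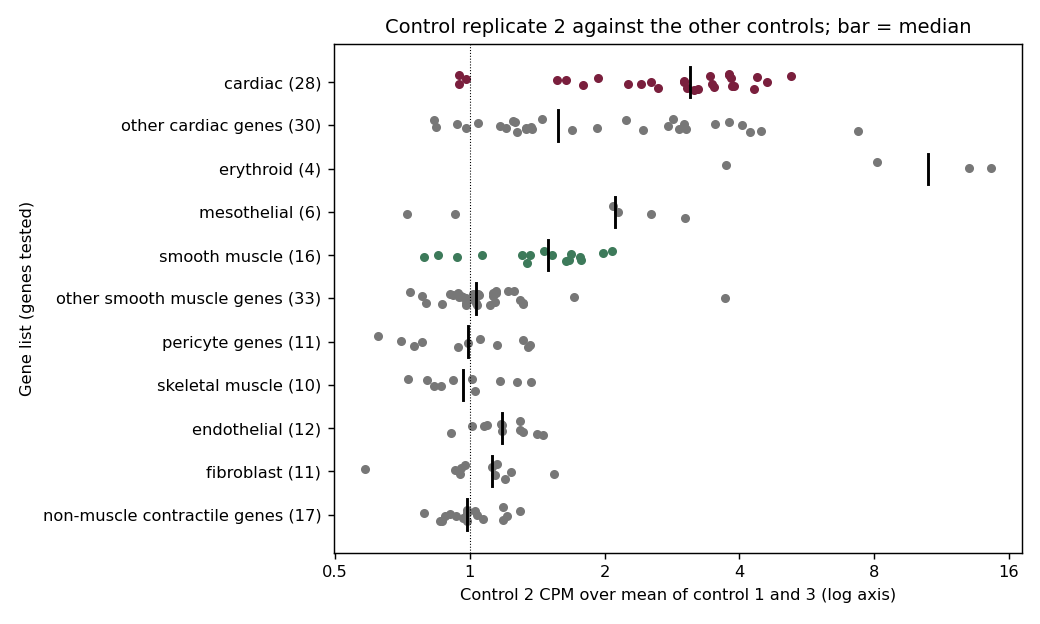
Level of each gene in control 2 divided by its mean in controls 1 and 3 (log axis), 1 point per gene, for the cardiac and smooth muscle genes and for lists of other cell types, with a bar at each list's median. The cardiac median is 3.11 and the smooth muscle median 1.5, while red cell genes lie higher, with a median of 10.6.

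A second list of 33 heart muscle genes outside the set was also mostly lower. Of its 30 tested genes, 25 were lower and 0 higher at an adjusted p under 0.05, against 23.8% and 18.1% of all genes tested (median log2 fold change -3.42). The smallest p-values belonged to Nebl, a nebulin-like Z disc protein (-3.42 ± 0.25), Mef2c, the muscle transcription factor (-2.16 ± 0.16), and Popdc2 (-4.29 ± 0.34). Nebl, at 280 to 317 CPM in the controls, did not follow control 2. Mef2c stood in control 2 at 1.25 times its mean in controls 1 and 3. The list's median control 2 ratio was 1.57, against 3.11 for the cardiac members of the set. Its median control coefficient of variation was 38.8%, against 73.1%. Which cells gave the reads of its genes was not tested. The atrial potassium channel genes Kcnj3 and Kcnj5, and Trdn and Smpx, had no tumour read; they were picked out after their values were seen. The heart transcription factor genes Nkx2-5 and Hand2 had too few reads to be tested and none in tumours. Skeletal muscle genes were scarce: 10 of 23 were tested, 2 were lower (Tnnt3 and Mylpf), a share near the 23.8% of all genes tested, 0 were higher (against 18.1%), and their summed level was 18.1 to 19.0 CPM in controls and 10.02 to 12.6 CPM in tumours. The skeletal genes Myod1 and Myh4 had no read in any library, and of 5 genes of fat only Plin1 was tested and it was not called.

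The smooth muscle genes also fell, over a narrower range. All 16 passed the filter, 13 were lower (against 23.8% of all genes tested), 2 were higher (Tpm1 and Cald1, against 18.1%) and 1, Myocd, was not called. The groups did not overlap for 15 of 16, against 56.0% of all genes tested. Their median log2 fold change was -2.08, and 4 members were at least 10-fold lower. No member lost its reads in tumours.

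**Figure D3:**
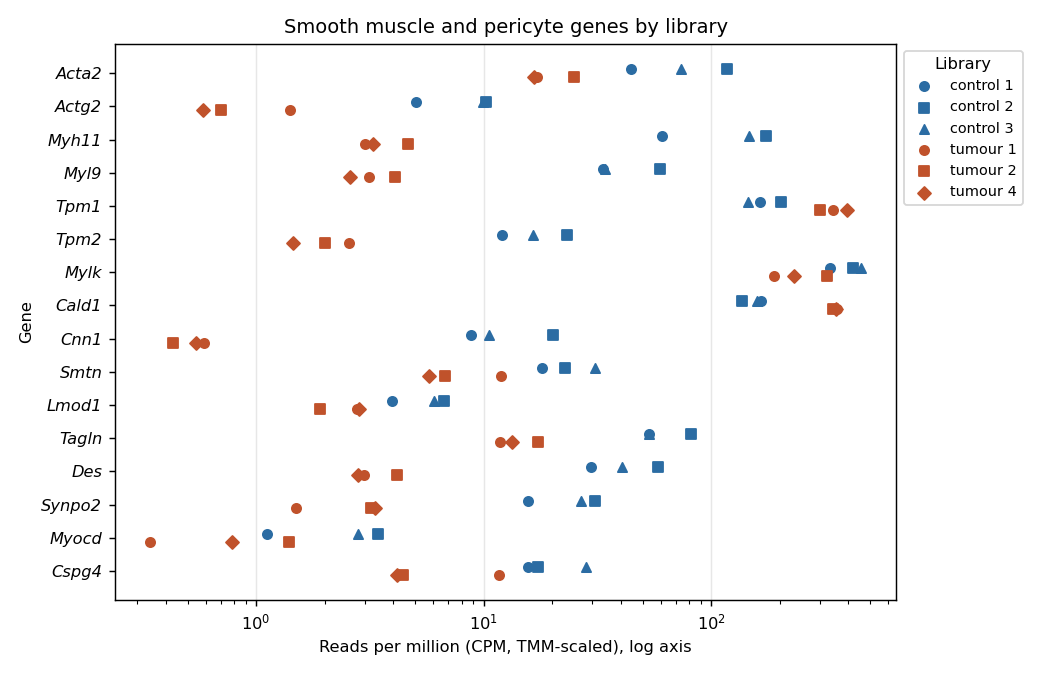
CPM (TMM-scaled, log axis) of the 16 smooth muscle and pericyte genes in each of the 3 control (blue) and 3 tumour (orange) libraries, 1 point per library. Tumour points lie to the left of control points for 13 called genes, and to the right for Tpm1 and Cald1.

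Among the actins, myosins and tropomyosins, the smooth muscle heavy chain fell most. Myh11 (chr16:14194620-14291501, mm9) was at 60.8, 174 and 147 CPM in controls and at 3.02, 4.67 and 3.27 CPM in tumours (fitted log2 fold change -5.12 ± 0.43, adjusted p = 6.29e-05). Acta2, vascular smooth muscle actin (chr19:34315580-34329826, mm9), was at 44.4, 117 and 73.4 CPM in controls and at 17.1, 24.9 and 16.6 CPM in tumours (fitted log2 fold change -2.0 ± 0.35, adjusted p = 0.00219). Its relative Actg2, the enteric smooth muscle actin, was at 5.05, 10.2 and 9.91 CPM in controls and at 1.41, 0.700 and 0.586 CPM in tumours (fitted log2 fold change -3.21 ± 0.44, adjusted p = 0.000665). None of the 3 had overlapping groups. Myl9, the smooth muscle regulatory light chain, was at 33.5, 59.7 and 34.1 CPM in controls and at 3.14, 4.09 and 2.58 CPM in tumours (fitted log2 fold change -3.69 ± 0.30, adjusted p = 5.79e-05). Tpm2, beta-tropomyosin, was at 12.1, 23.3 and 16.5 CPM in controls and at 2.55, 2.01 and 1.45 CPM in tumours (fitted log2 fold change -3.10 ± 0.33, adjusted p = 0.000175). The other tropomyosin gene rose. Tpm1, which makes muscle and non-muscle isoforms by splicing, was at 164, 203 and 145 CPM in controls and at 342, 302 and 394 CPM in tumours (fitted log2 fold change 1.02 ± 0.19, adjusted p = 0.00288). The counts are per gene, so its isoforms cannot be told apart.

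The filament regulators were mixed. Cald1, caldesmon, likewise a gene with muscle and non-muscle isoforms, was at 165, 137 and 158 CPM in controls and at 359, 342 and 354 CPM in tumours (fitted log2 fold change 1.20 ± 0.15, adjusted p = 0.000394). Cnn1, calponin of differentiated smooth muscle, was at 8.77, 20.1 and 10.6 CPM in controls and at 0.588, 0.431 and 0.542 CPM in tumours (fitted log2 fold change -4.66 ± 0.40, adjusted p = 6.69e-05). Neither gene's groups overlapped, and the 3 tumours were close to each other for both. Mylk, the kinase that switches smooth muscle myosin on, was at 334, 419 and 455 CPM in controls and at 189, 323 and 231 CPM in tumours (fitted log2 fold change -0.70 ± 0.23, adjusted p = 0.0404). Its call was lost without control 2 (adjusted p = 0.114), control 3 (0.148), tumour 1 (0.0749) or tumour 4 (0.116). Smtn, smoothelin, fell by 1.56 ± 0.32 (adjusted p = 0.00514), and 16.3% of its exon bases overlap other names. Lmod1, which starts new actin filaments, fell by 1.15 ± 0.30 (adjusted p = 0.0162), a call lost without control 2 (0.0723) or control 3 (0.0666).

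The smooth muscle cytoskeleton fell in all 3 of its genes. Tagln, transgelin, was at 53.4, 81.6 and 53.3 CPM in controls and at 11.8, 17.3 and 13.3 CPM in tumours (fitted log2 fold change -2.15 ± 0.23, adjusted p = 0.000201). Des, desmin, the intermediate filament of all muscle types, was at 29.5, 58.6 and 40.8 CPM in controls and at 2.98, 4.16 and 2.80 CPM in tumours (fitted log2 fold change -3.70 ± 0.30, adjusted p = 5.71e-05). Synpo2, an actin-binding protein, fell by 3.19 ± 0.38 (adjusted p = 0.000336). Desmin is made by heart muscle too, and the share of its reads from each tissue was not measured.

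Myocd, the coactivator of serum response factor in heart and smooth muscle, was at 1.11, 3.45 and 2.80 CPM in controls and at 0.343, 1.40 and 0.781 CPM in tumours (fitted log2 fold change -1.55 ± 0.59, adjusted p = 0.0652). Tumour 2 lay above control 1. It was called lower without control 1 (adjusted p = 0.0404), without tumour 2 (0.0250, with a log2 fold change of -2.14), in DESeq2 (0.0254) and when scaled by total counts (0.0383). Cspg4, the NG2 proteoglycan of pericytes, was at 15.7, 17.4 and 28.3 CPM in controls and at 11.7, 4.44 and 4.14 CPM in tumours (fitted log2 fold change -1.59 ± 0.44, adjusted p = 0.0191). The call was lost without control 3 (adjusted p = 0.0956) or tumour 4 (0.0533), and without tumour 1, the highest tumour, the log2 fold change was -2.22.

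By their median, smooth muscle genes varied less among the controls than the cardiac genes did, a difference that was not tested and that rests largely on control 2: without it the medians were 29.6% for cardiac and 26.3% for smooth muscle genes. Their median coefficient of variation was 33.2% (range 9.44 to 49.1%) and 0 of 16 exceeded 50%. Control 2 was the highest control for 12 of 16, against 36.8% of all genes tested, the exceptions being Mylk, Cald1, Smtn and Cspg4. It stood at a median of 1.5 times the mean of controls 1 and 3. Over the 13 that fell, the median ratio of control 2 to control 1 was 1.94, that of control 2 to control 3 was 1.19 and that of control 3 to control 1 was 1.54. By these medians controls 2 and 3 were closer to each other than either was to control 1. The summed CPM of these 13, chosen by their call, was 634, 1041 and 932 in controls and 259, 397 and 288 in tumours. Over all 16, Tpm1 and Cald1 included, it was 965, 1385 and 1238 in controls and 960, 1042 and 1037 in tumours. Control 1 then lay below tumours 2 and 4. The members share the same 3 control libraries, so these figures describe those libraries.

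**Figure D4:**
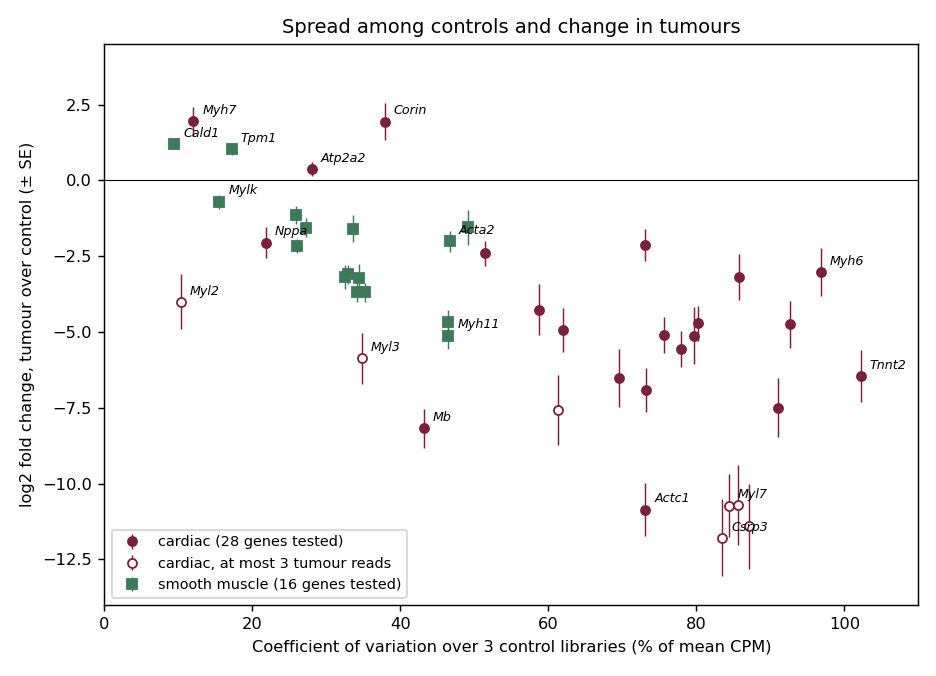
Coefficient of variation over the 3 controls (x axis, % of mean CPM) against the log2 fold change of tumour over control with its SE (y axis) for the 28 cardiac (circles) and 16 smooth muscle (squares) genes tested, with open circles for genes with at most 3 tumour reads, whose fitted change depends on the prior count. Cardiac genes reach 102% and smooth muscle genes 49.1%, and the genes above 0 are Myh7, Corin, Atp2a2, Tpm1 and Cald1.

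Per kilobase of exon, the most abundant cardiac members in the controls were Myl7, Atp2a2, Actc1, Myh6 and Tnnt2, with mean RPKM levels of 42.1, 40.7, 30.7, 25.4 and 22.8. The most abundant smooth muscle members were Acta2, Tagln, Mylk and Myl9, with mean RPKM levels of 43.9, 39.6, 37.9 and 36.5. In the tumours, Tpm1, Atp2a2 and Cald1 led, with mean RPKM levels of 53.4, 52.4 and 45.7, followed by Myh7 with 28.8. Each pair of neighbours named here differed by less than the larger SD of the pair, so their order is not settled.

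**Figure D5:**
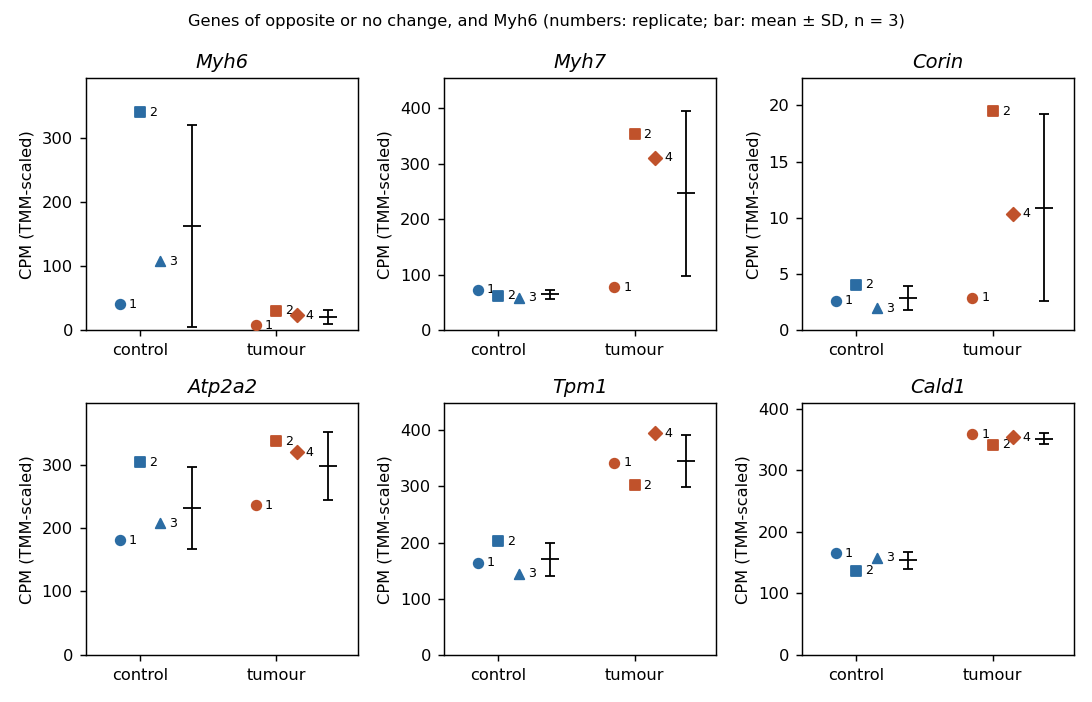
CPM (TMM-scaled, linear axes from 0) in each library for Myh6 and for the members that were higher or showed no detected change, Myh7, Corin, Atp2a2, Tpm1 and Cald1, with the mean and SD of 3 libraries per group. Tpm1 and Cald1 are higher in every tumour, while Myh7 and Corin are much higher in tumours 2 and 4 than in tumour 1.

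A second list of 33 smooth muscle genes outside the set had 19 lower, 2 higher and 12 not called, against 23.8% lower and 18.1% higher of all genes tested (median log2 fold change -1.45). The smallest p-values among the lower genes belonged to Itga8, an integrin of contractile mesenchyme (-6.14 ± 0.35), Gucy1b3, a subunit of the nitric oxide receptor (-3.44 ± 0.22), and Prkg1, the cGMP-dependent kinase (-3.81 ± 0.24). Gata6 (1.12 ± 0.19) and Svil, supervillin (0.48 ± 0.14), were higher. Srf, the partner of Myocd, was at 16.1, 15.97 and 18.8 CPM in controls and at 18.1, 13.4 and 11.6 CPM in tumours, and was not called (adjusted p = 0.387). It was picked out for this partnership.

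Pericyte genes beyond Cspg4 did not move as one. Of 11, 7 were lower and 2 higher, against 23.8% and 18.1% of all genes tested. Rgs5, a regulator of G protein signalling typical of pericytes, was at 7.82, 7.93 and 9.07 CPM in controls and at 125, 110 and 108 CPM in tumours (fitted log2 fold change 3.79 ± 0.16, adjusted p = 4.97e-06). Cox4i2 was higher, with a log2 fold change of 1.24 ± 0.28 (adjusted p = 0.00780). Lamc3 (-6.32 ± 0.56), Higd1b (-2.51 ± 0.24) and Trpc6 (-1.95 ± 0.20) fell with the smallest p-values. Summed over the 11, pericyte genes stood at 393 to 568 CPM in controls and at 303 to 364 CPM in tumours.

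Genes of other lung tissue fell beside the muscle genes. All 12 endothelial genes were lower (summed 3637 to 4961 CPM in controls and 296 to 461 CPM in tumours), as were 10 of 11 fibroblast genes (1415 to 1616 and 220 to 416 CPM) and all 6 mesothelial genes, against 23.8% of all genes tested. The part of the tissue's make-up in the fall of the muscle genes was not tested.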

How the data were processed

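Total RNA from lung or lung tumour was sequenced, per the labels' protocols. The authors deposited raw read counts per gene name, made with featureCounts 1.6.5 over exons of GENCODE vM1, per the file headers: a read over several names was counted for each, and no strand, pair or multi-mapping option was set. Antisense and overlapping genes therefore cannot be told apart. STAR is named as aligner and mm9 and GRCm38 as builds, per the submitters' processing notes; for STAR, the sources used here give no version. Exon lengths, also deposited in the table, gave RPKM levels.

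Gene positions are those of the deposited table (mm9), and promoters come from RefSeq (GRCm38.p6); the builds were not mixed. Counts were tested in edgeR 4.0.16 (R 4.3.3) with filterByExpr at a minimum count of 10, TMM and a quasi-likelihood F test. Group was the only term, with Benjamini-Hochberg adjustment over 20001 genes and a threshold of 0.05. A check on simulated counts did not cover changes as large as those of most cardiac members. Each SE is the absolute fitted log2 fold change divided by the square root of the quasi-likelihood F. For genes with few tumour reads the fitted change depends on the prior count, so its SE is uncertain. A gene with 0 tumour reads got a bound against 3 reads over the tumour libraries. One with 1 to 3 reads got a ratio of pooled reads with an exact binomial 95% interval. Shared sequence was counted as 32-base words of each transcript found in other genes. Alternatives were DESeq2 1.42.0, limma-voom (limma 3.58.1), other scalings, no filter, a test against a 2-fold change, a replicate block and each library left out.

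Members came as 46 entries (Pln was entered in duplicate). The members, the lists and the rule for named genes were chosen with earlier results of these data known. Per-library values are given for 28 listed members and for members that did not fall, and of each other list up to 3 genes a direction with the smallest p. Of the listed other genes, 1 (Myl12a) was not in the table.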

Additional observations from a re-analysis of the deposited data

How the results depend on the processing

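Each member tested under an alternative kept its direction there (no alternative was computed for Nppb, and Myl2 did not pass the filter without control 2). Between 20 and 25 cardiac and between 9 and 14 smooth muscle members were called lower. The low ends were under the replicate block (20 and 9) and, for smooth muscle, also in the test against a 2-fold change (9). Of all 20001 genes tested, 4770 were lower in the main fit, 2549 under the block and 2909 against a 2-fold change. Across all settings, 2549 to 5226 genes were lower, of 19973 to 26914 tested. Genes changed in all numbered 8397, but 3641 under the replicate block, 3965 in the test against a 2-fold change, and 6421 to 9436 when each library was left out. The block draws the group difference only from controls 1 and 2 and tumours 1 and 2. Control 3 and tumour 4 have no same-numbered partner. Under the block 0 cardiac and 1 smooth muscle member were called higher, against 1092 of all 20001 genes tested. Against a 2-fold change 0 of either list were higher, and 1056 of all genes tested. The median control coefficient of variation of the cardiac members was 29.6 to 78.4% when each control was left out (29.6% without control 2), and that of smooth muscle 22.3 to 42.4%. The medians of the log2 fold changes when each library was left out were -5.49 to -4.32 for cardiac and -2.27 to -1.80 for smooth muscle members. Replicate numbers 1 and 2 occur in both groups, and the deviations of same-numbered libraries correlated at -0.18 and -0.01. Libraries with different numbers correlated at -0.12 to 0.18. With so few libraries these values cannot tell whether equal numbers stand for pairs. Scaling by total counts shifted the median log2 fold change of all genes by -0.12, and higher genes then made up 33.6% of calls against 43.2%, with 2 members of each list still higher. Genes near 3 reads, such as Nppb, are limited by depth.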

Other observations

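Contractile genes of non-muscle cells were called about as often as genes at large. Of 17 tested, 5 were lower (29.4%, against 23.8% of all genes tested), 3 were higher (17.6%, against 18.1%) and 9 were not called, with a median log2 fold change of -0.06. Actb, the actin of the general cytoskeleton, was not called (0.03 ± 0.23, adjusted p = 0.938), and Actg1, its near relative, rose by 0.95 ± 0.19 (adjusted p = 0.00506). Tpm3 (0.69 ± 0.15) and Actn4 (0.82 ± 0.21) also rose. Myh10, a non-muscle myosin heavy chain, fell from 273, 308 and 349 CPM in controls to 11.4, 16.6 and 16.8 CPM in tumours (fitted log2 fold change -4.38 ± 0.22, adjusted p = 1.23e-05). Cnn3 fell by 1.14 ± 0.15 and Myh14 by 0.87 ± 0.20 on the log2 scale. Whether the lists differ was not tested.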
